A study of Mus musculus with 19 samples.

Results

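The 43 genes described here are expressed genes spread along mouse chromosome 8, among 55416 genes in the count table. They were chosen from this chromosome after its genes had been seen to stand higher in mESC lines 2.2 and 3.1 than in the other lines of embryos 2 and 3, so the higher level in those 2 lines is what the choice rests on and is given as a description. All 43 genes passed the filter on low counts, as did 18878 genes in all, of which 15060 were protein_coding and 784 of those lay on chromosome 8.

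The mESC lines were derived from single blastomeres of 8-cell embryos, and the study asked whether lines from sister blastomeres of 1 embryo have the same transcriptome. Embryo 3 gave lines 3.1 to 3.7, embryo 2 gave lines 2.1 to 2.7 and embryo 1 gave lines 1.1 to 1.5, with 1 mRNA library per line. The embryos came from B6CBAF1/J parents, so they were F2 embryos that differ from each other in genotype, and the labels name no transgene or engineered allele. Each line is 1 clone from 1 blastomere. All lines were grown in the same way on a layer of mitotically inactivated human foreskin fibroblasts (HFF-1), in a serum replacement medium with leukemia inhibitory factor, the MEK inhibitor PD0325901 and the TGFβ inhibitor SB431542. Feeder cells were removed before RNA extraction.

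Chromosome 8 carries genes of unrelated functions, which share a chromosome and little else: enzymes of DNA repair, subunits of chromatin complexes, the adhesion protein E-cadherin, the insulin receptor and many housekeeping proteins. An extra copy of chromosome 8 is among the most frequent karyotype changes in cultured mouse embryonic stem cells. When a whole chromosome is gained, its transcripts usually rise about in proportion to the copy number, while the partners of its proteins are encoded on other chromosomes and keep their own dosage. Copy number was not measured in these libraries, and its part in the values below was not tested.

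Total counts per line lay between 33846569 and 48740941 (44096597 in line 2.2 and 43282321 in line 3.1), and no 2 of the 19 libraries were identical. Levels are given as CPM (counts scaled to a common library size), with TMM factors. A difference is the log2 CPM of a line minus the mean log2 CPM of its 6 sister lines, which are the other lines of the same embryo. Chromosome 8 genes took 5.80% of the protein_coding counts in line 3.1 and 5.90% in line 2.2. The shares in the other lines were 4.28% to 5.03%, and 4 of those lines stood above the rest: 3.6 (5.03%), 2.1 (4.99%), 3.2 (4.93%) and 1.2 (4.88%), against 4.61% or less in all others. Sister means therefore include 1 line of embryo 2 and 2 lines of embryo 3 with somewhat raised chromosome 8 levels, and values without them are given where they bear on a count.

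**Figure D1:**
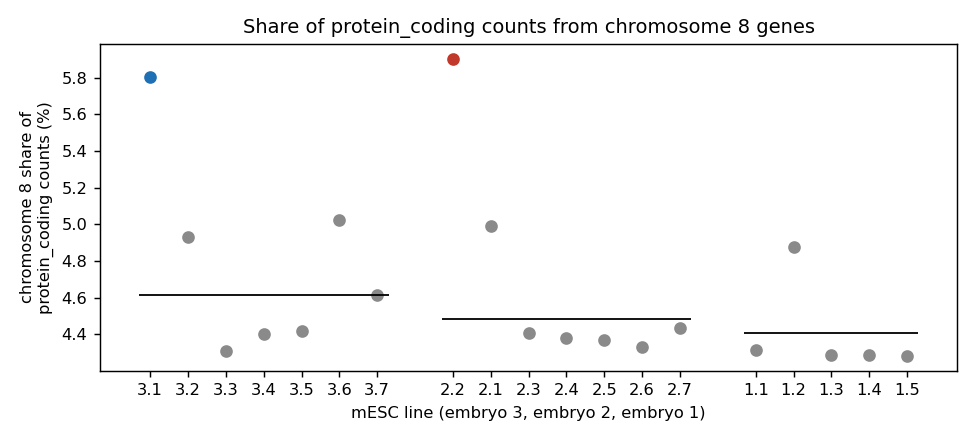
Share of protein_coding counts that fell on chromosome 8 genes (%, y axis, which does not start at 0) in each of the 19 mESC lines (x axis, embryo 3, embryo 2, embryo 1), with line 3.1 in blue, line 2.2 in red and a horizontal line at the mean of the other lines of each embryo. Lines 3.1 and 2.2 lie at 5.80% and 5.90%, and lines 3.6, 2.1, 3.2 and 1.2 lie between 4.88% and 5.03%.

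Promoter sequence is shown for 3 genes: Fanca, which had the largest mean difference in lines 2.2 and 3.1 among the genes with an entry in the promoter table, and Junb and Gabarapl2, the genes with the lowest mean difference. The 4 genes above Fanca in that order, Insr, Wwox, Polb and Nsd3, had no entry. Each sequence holds the 250 bases before the RefSeq start of the gene, from the RefSeq table of build GRCm38.p6, 5′ to 3′ on the gene's own strand, and each was found once on chromosome 8 of GRCm39. Capitals mark 3 motifs on either strand: the CCAAT box (CCAAT, or ATTGG), the GC box (GGGCGG, or CCGCCC) and the TATA box (TATAAA, or TTTATA). The Fanca window is chr8:124045316-124045565 (minus strand), the Gabarapl2 window is chr8:112667085-112667334 (plus strand) and the Junb window is chr8:85705378-85705627 (minus strand), all in GRCm39.
Fanca promoter: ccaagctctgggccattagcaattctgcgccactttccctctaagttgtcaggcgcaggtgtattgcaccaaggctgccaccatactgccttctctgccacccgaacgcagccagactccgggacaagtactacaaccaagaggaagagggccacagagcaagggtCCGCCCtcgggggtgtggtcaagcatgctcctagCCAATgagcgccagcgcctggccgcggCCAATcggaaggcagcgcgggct
Gabarapl2 promoter: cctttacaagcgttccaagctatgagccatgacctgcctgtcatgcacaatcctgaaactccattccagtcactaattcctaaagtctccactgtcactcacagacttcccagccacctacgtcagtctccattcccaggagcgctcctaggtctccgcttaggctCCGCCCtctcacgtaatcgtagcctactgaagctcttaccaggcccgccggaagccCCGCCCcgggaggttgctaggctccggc
Junb promoter: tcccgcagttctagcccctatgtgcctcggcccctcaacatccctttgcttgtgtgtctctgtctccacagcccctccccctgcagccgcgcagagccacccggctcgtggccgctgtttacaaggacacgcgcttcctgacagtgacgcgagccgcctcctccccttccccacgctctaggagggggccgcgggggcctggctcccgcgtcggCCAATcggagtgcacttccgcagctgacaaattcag
Fanca held 2 CCAAT boxes and 1 GC box, Gabarapl2 held 2 GC boxes, Junb held 1 CCAAT box, and none of the 3 windows held a TATA box. The GC content was 61.6%, 57.2% and 66.4% in that order, with 14, 12 and 20 CpG sites. Of the 43 genes, 24 had an entry in the promoter table. A GC box was found in 15 of the 24 and in 32.9% of all 27025 promoters of the same length, a CCAAT box in 7 of the 24 and in 34.5% of all, and a TATA box in 1 of the 24 and in 13.0% of all. The median number of CpG sites was 21.5 in the 24 promoters and 6 in all promoters. All promoters here means every gene of the promoter table, expressed or not, while the 43 genes were chosen as expressed. No comparison with other expressed genes was made, so these shares do not set the 43 genes apart from such genes.

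Along the whole chromosome, protein_coding genes of chromosome 8 had a median difference of 0.43 in line 2.2, with 84.6% of 784 genes above the sister mean, and of 0.37 in line 3.1, with 90.8% above it. A ratio of 3 to 2 would be 0.58 on this scale. No other chromosome was near these values in these lines. Their medians ran from -0.15 (chromosome X) to 0.05 (chromosome 12) in line 2.2 and from -0.03 (chromosome 19) to 0.11 (chromosome 6) in line 3.1. Shifts of similar size were found on other chromosomes in some sister lines of embryo 3. Against the other lines of the embryo, the median was 0.37 for chromosome 13 in line 3.2. It was -0.42 for chromosome 14 in line 3.6 and -0.36 for chromosome 6 in line 3.7.

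**Figure D2:**
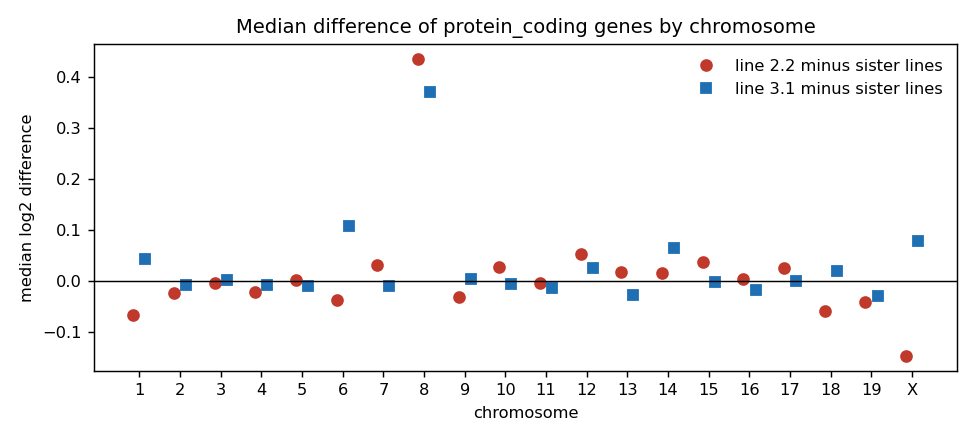
Median over protein_coding genes of the log2 difference of line 2.2 (red circles) and line 3.1 (blue squares) from their 6 sister lines (y axis), for each chromosome (x axis). Chromosome 8 stands at 0.43 in line 2.2 and 0.37 in line 3.1, and every other chromosome lies between -0.15 and 0.11.

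The raised level ran from end to end of the chromosome. In windows of 10 Mb, the median difference lay between 0.35 and 0.64 in line 2.2, the highest value coming from a window with 12 genes, and between 0.33 and 0.48 in line 3.1. All 13 windows had a positive median in both lines. The level of the genes made little difference to the median. When the 784 genes were ranked by mean CPM and cut into 3 equal parts, the medians of the lowest, middle and highest part were 0.41, 0.46 and 0.42 in line 2.2 and 0.41, 0.38 and 0.34 in line 3.1. Long noncoding RNA genes of chromosome 8 (60 tested) had medians of 0.59 in line 2.2 and 0.30 in line 3.1, against 0.06 and 0.04 for the 1208 such genes of other chromosomes. The 79 pseudogenes of chromosome 8 were not raised in the median, at -0.14 and -0.11, against -0.18 and -0.07 for the 1917 pseudogenes elsewhere. Many pseudogenes resemble a parent gene on another chromosome, and the estimated counts share reads between such copies. The part of this in the pseudogene values was not tested.

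**Figure D3:**
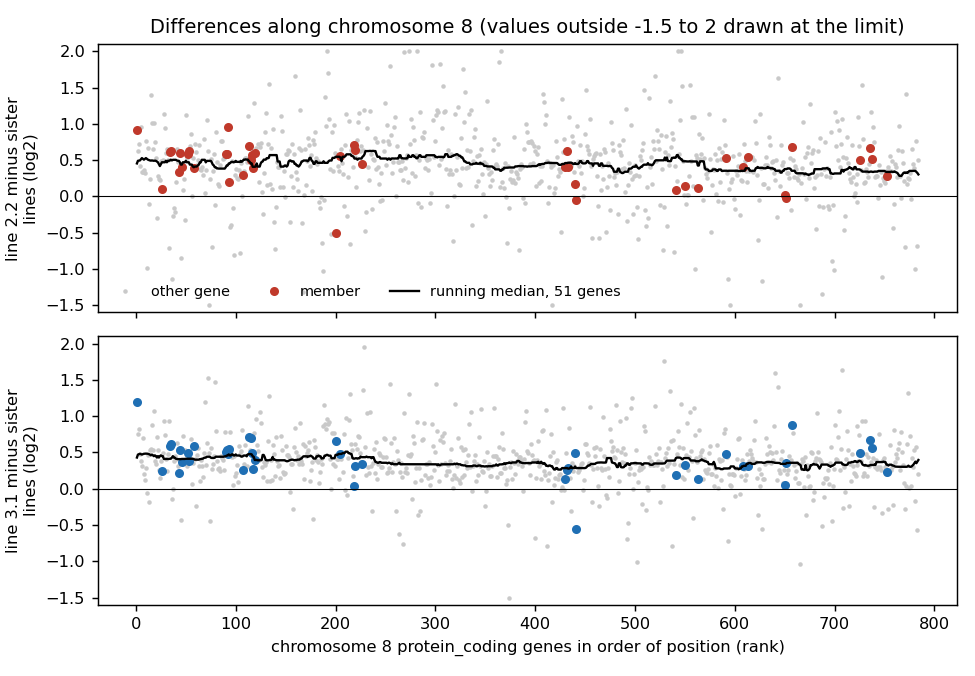
Log2 difference from the sister lines (y axis) of the 784 protein_coding genes of chromosome 8 in order of position (x axis), for line 2.2 (upper panel) and line 3.1 (lower panel), with the 43 described genes in colour and a running median over 51 genes in black. The running median stays above 0 from end to end in both lines, and single genes, among them Junb in both lines and Irf2 in line 2.2, fall below it.

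For the 43 described genes the median difference was 0.51 in line 2.2, where 40 of 43 were above the sister mean, and 0.40 in line 3.1, where 42 of 43 were. For the 741 chromosome 8 genes that were not among them, the medians were 0.43 and 0.37. A level above every sister line was found for 83.7% of the 43 genes in line 2.2 and 79.1% in line 3.1. Among those 741 genes it was found for 65.3% and 57.8%. Along the chromosome this share rose with the level of the genes, unlike the median. In the parts ranked by mean CPM, it was 42.0% and 31.7% in the lowest and 73.6% and 68.2% in the middle part. In the highest part it was 83.5% and 77.0%, close to the shares of the 43 genes. Whether level accounts for the contrast with the 741 genes was not tested. In line 2.2, 36 of the 43 genes stood above every sister line and 0 stood below every one, while 23.5% of all protein_coding genes tested stood above and 22.5% below. In line 3.1, 34 of 43 stood above every sister line and 1 below, while 13.9% of all protein_coding genes stood above and 14% below. Outside chromosome 8, 21.1% stood above and 23.5% below in line 2.2, and 11.4% above and 14.7% below in line 3.1. These contrasts chose the genes, so the counts are not tests.

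The size of the difference was moderate for most genes. In line 2.2, 13 of 43 genes were over 1.5-fold above the sister mean, 20 were between 1.2-fold and 1.5-fold and 10 were at or under 1.2-fold. In line 3.1 the same classes held 9, 24 and 10 genes, and 1 gene, Insr, was over 2-fold. No share of all protein_coding genes was taken at 1.5-fold or 2-fold, so these classes only describe the 43 genes. A level over 1.2-fold above the sister mean was found for 33 of 43 genes in line 2.2, against 26.3% of all protein_coding genes and 23.9% of those outside chromosome 8. In line 3.1 it was found for 33 of 43 genes, against 22.6% and 20.1%. A level over 1.2-fold below the sister mean was found for 1 of 43 genes in line 2.2 (Irf2), against 23.1% and 24%, and for 1 of 43 in line 3.1 (Junb), against 15.3% and 15.9%. The SD of the 6 sister lines on the log2 scale had a median over the 43 genes of 0.13 in embryo 2 and 0.16 in embryo 3.

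Both lines agreed in part on which genes were most raised. Of the 43 genes, 31 stood above every sister line in both, 5 in line 2.2 alone, 3 in line 3.1 alone and 4 in neither. Among all 784 protein_coding genes of chromosome 8, 387 stood above in both, and among 14276 elsewhere 800 did. Across the 43 genes the differences in the 2 lines had a Pearson r of 0.44 and a Spearman rho of 0.45. Across the 784 chromosome 8 genes the values were 0.45 and 0.49, and across 14276 protein_coding genes elsewhere they were 0.33 and 0.41. These are descriptions over genes within libraries prepared alike, and genes are not independent replicates.

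**Figure D4:**
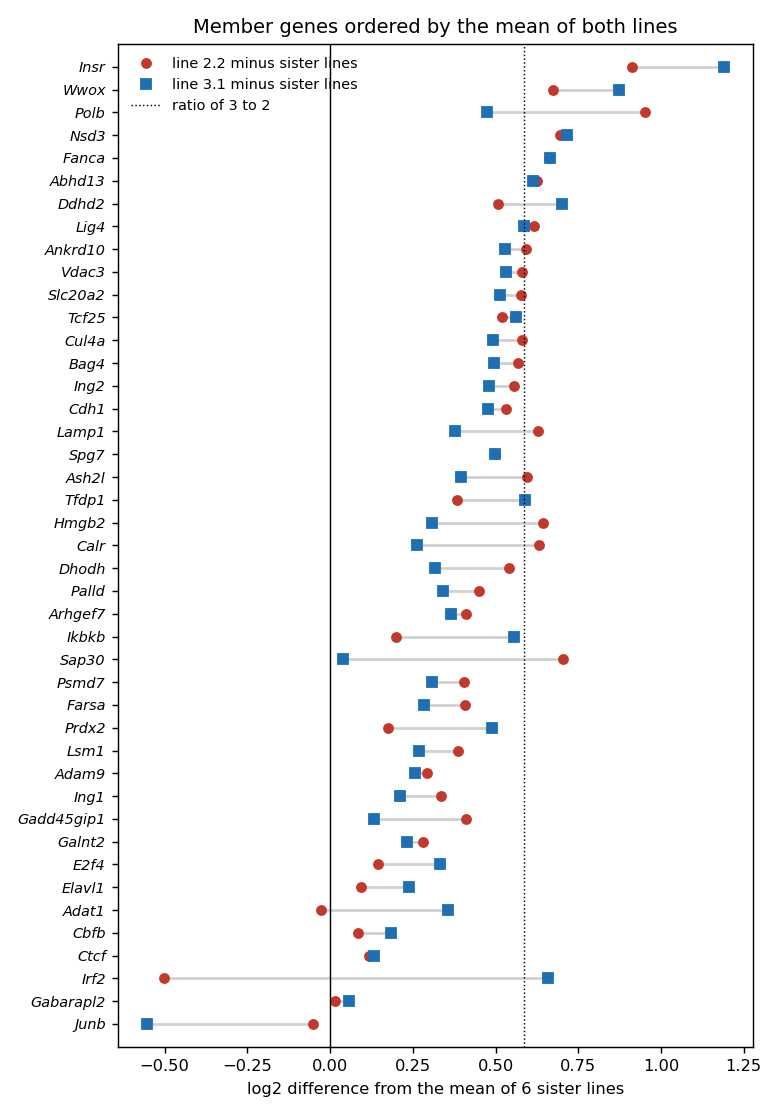
Log2 difference of line 2.2 (red circles) and line 3.1 (blue squares) from the mean of their 6 sister lines (x axis) for the 43 genes (y axis), ordered by the mean of both lines, with a dotted line at the log2 of 3 to 2 (0.58). Insr, Wwox and Polb head the order and Irf2, Gabarapl2 and Junb close it, and most genes lie between 0.2 and 0.7 in both lines.

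Genes of DNA repair and of a ubiquitin ligase were the most raised of the groups with a described role, with medians of 0.64 in line 2.2 and 0.54 in line 3.1. Polb, the gap-filling polymerase of base excision repair, stood at 49.1 CPM in line 2.2, against 24.2 to 27.9 CPM (median 24.98) in its sister lines, and at 37.8 CPM in line 3.1, against 23.1 to 31.6 CPM (median 27.7). Its difference was 0.95 in line 2.2 and 0.47 in line 3.1. Polb thus lay clear of the sister lines in both cases, with the wider margin in line 2.2. Fanca, of the Fanconi anemia core complex, stood at 126 CPM in line 2.2, against 67.3 to 102 CPM, and at 113 CPM in line 3.1, against 63.6 to 84.3 CPM. Its differences, 0.66 and 0.66, were the same to this precision. Lig4, the ligase that seals ends in nonhomologous end joining, was above every sister line in line 2.2 (22.3 CPM, against 13.4 to 16.0 CPM) and not in line 3.1 (24.2 CPM, against 13.3 to 24.5 CPM), where sister line 3.6 had the highest value. Cul4a, the scaffold of a family of ubiquitin ligases, had differences of 0.58 and 0.49 and was above every sister line in both.

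Among signalling, adhesion and cytoskeleton genes the medians were 0.45 in line 2.2 and 0.48 in line 3.1. Insr, the insulin receptor, had the largest mean difference of all 43 genes (0.91 in line 2.2, 1.19 in line 3.1). It stood at 32.6 CPM in line 2.2, against 11.4 to 23.0 CPM (median 17.1) in the sister lines, and at 33.4 CPM in line 3.1, against 10.5 to 23.5 CPM (median 13.9). Insr was above every sister line in both embryos, but it also varied widely among lines whose chromosome 8 share was low, and line 1.5 had the highest level of all 19 lines at 46.7 CPM. The remaining genes of this group were all raised in both lines. Bag4, a co-chaperone that binds death receptors, had differences of 0.57 and 0.49. Cdh1, which encodes E-cadherin, stood at 461 CPM in line 2.2, against 277 to 364 CPM, and at 518 CPM in line 3.1, against 329 to 445 CPM, differences of 0.53 and 0.48. Palld (0.45 and 0.34), which bundles actin, and Arhgef7 (0.41 and 0.36), an exchange factor for Rac, were above every sister line in both. Ikbkb, the kinase that releases NF-κB, was higher in line 3.1 (0.55) than in line 2.2 (0.20), relative to the sister lines. Adam9, a membrane metalloprotease, had differences of 0.29 and 0.26, and in line 3.1 its 51.2 CPM lay within the range of the sister lines (34.0 to 52.6 CPM).

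Genes of organelles and metabolism had medians of 0.52 in line 2.2 and 0.49 in line 3.1, and all 10 were above the sister mean in both lines. Wwox, an oxidoreductase with WW domains, came second in the order of mean differences (0.67 and 0.87). It stood at 14.0 CPM in line 2.2, against 7.46 to 12.6 CPM (median 8.12), and at 15.02 CPM in line 3.1, against 6.86 to 10.6 CPM (median 8.05). In both embryos the sister line nearest to it was one of those with a raised chromosome 8 share, 2.1 in embryo 2 and 3.2 in embryo 3. Differences near 0.5 to 0.6 in both lines were found for the phosphate transporter Slc20a2 (0.58 and 0.51), the mitochondrial channel Vdac3 (0.58 and 0.53) and Spg7 (0.50 and 0.50), a subunit of a protease of the inner mitochondrial membrane. Ddhd2, a lipase, was at 0.51 and 0.70. Lamp1, a lysosomal membrane protein, reached 539 CPM in line 2.2, against 318 to 360 CPM, and 443 CPM in line 3.1, against 306 to 386 CPM, which gave differences of 0.63 and 0.38. Dhodh, an enzyme of pyrimidine synthesis, was at 0.54 and 0.32. The peroxidase Prdx2 was at 0.18 in line 2.2 and 0.49 in line 3.1. Galnt2, which starts mucin-type glycosylation, was at 0.28 and 0.23 and was above every sister line in line 3.1 alone.

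Gabarapl2, an autophagy protein of the Atg8 family, was at the sister level in both lines, with differences of 0.01 and 0.06. It stood at 151 CPM in line 2.2, against 143 to 156 CPM (median 148), and at 258 CPM in line 3.1, against 179.6 to 355 CPM (median 256). In embryo 2 the lines lay so close together that a difference of the size seen for most genes would have stood out. In embryo 3 the sister lines covered a range of nearly 2-fold. The 10 nearest protein_coding neighbours of Gabarapl2 had medians of 0.32 in line 2.2 and 0.31 in line 3.1. The genes directly on either side, Tmem231 and Adat1, were not raised in line 2.2 (-0.03 each). In line 3.1 they were at 0.26 and 0.36.

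Transcription and chromatin genes were less raised in the median (0.36 in line 2.2, 0.32 in line 3.1) and were the most varied group. Nsd3, a histone methyltransferase, had the largest mean difference of the group. It stood at 71.5 CPM in line 2.2, against 38.8 to 50.7 CPM in the sister lines, and at 69.2 CPM in line 3.1, against 35.1 to 50.2 CPM, with differences of 0.70 and 0.72. Ash2l, a core subunit of MLL histone methyltransferase complexes, had differences of 0.60 and 0.40. Ing2 (0.56 and 0.48) and Ing1 (0.34 and 0.21), readers of methylated histone tails in Sin3 complexes, were above every sister line in both. Tfdp1, the dimer partner of E2F proteins, was at 0.38 and 0.59, and E2f4, the E2F protein of quiescence complexes, at 0.14 and 0.33. Hmgb2, a DNA-bending protein of proliferating cells, reached 980.3 CPM in line 2.2, against 576 to 675 CPM, and 852 CPM in line 3.1, against 607 to 817 CPM.

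Sap30, another Sin3 complex subunit, gave the largest gap between the lines apart from Irf2. It stood at 124 CPM in line 2.2, against 65.4 to 95.2 CPM, a difference of 0.70, but at 98.2 CPM in line 3.1, within the 75.5 to 114 CPM of its sister lines, a difference of 0.04. Hmgb2, the next described gene on the chromosome, was raised in both lines (0.64 and 0.31). Fbxo8, the tested protein_coding gene on the other side of Sap30, was at 0.40 and 0.18. In line 3.1 Sap30 lay below both of these genes.

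The 3 transcription factors Cbfb, E2f4 and Ctcf lie within 1 window of 10 Mb and were raised little in line 2.2. Ctcf, which insulates chromatin domains, stood at 217 CPM in line 2.2, against 168 to 223 CPM, and at 218 CPM in line 3.1, against 179 to 221 CPM. Its differences of 0.12 and 0.13 were small, and its levels lay inside the range of the sister lines. Cbfb, the partner of Runx factors, was at 0.08 and 0.18. The genes around them were raised in the median, though not each of them. The 10 nearest neighbours of Ctcf had medians of 0.55 and 0.48, and those of Cbfb 0.74 and 0.53. The window of 100 to 110 Mb, with 82 genes, had medians of 0.40 and 0.36.

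Junb, a subunit of the AP-1 transcription factor, was the gene with the lowest mean difference. It stood at 92.7 CPM in line 2.2, inside the 84.7 to 108 CPM (median 95.6) of the sister lines, and at 63.9 CPM in line 3.1, below the 71.9 to 121 CPM (median 94.8) of its sister lines. The differences were -0.05 and -0.55. Its 10 nearest neighbours had medians of 0.45 and 0.31. The 3′ end of Junb (minus strand, 85701113 to 85705359 in GRCm39) overlaps that of Prdx2 (plus strand, 85693354 to 85702350) in the annotation, and although the libraries were stranded, the strand setting of the counting was not given in the sources used here. Lig4 and Abhd13 overlap at their 5′ ends on opposite strands in the same way.

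Irf2, an interferon regulatory factor, was barely expressed, with 8 to 69 counts per line, and its differences of -0.50 in line 2.2 and 0.66 in line 3.1 both lay within the range of the sister lines. It stood at 0.838 CPM in line 2.2, against 0.785 to 1.60 CPM (median 1.29), and at 0.916 CPM in line 3.1, against 0.269 to 1.15 CPM (median 0.62). No change in Irf2 was detectable at this depth.

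**Figure D5:**
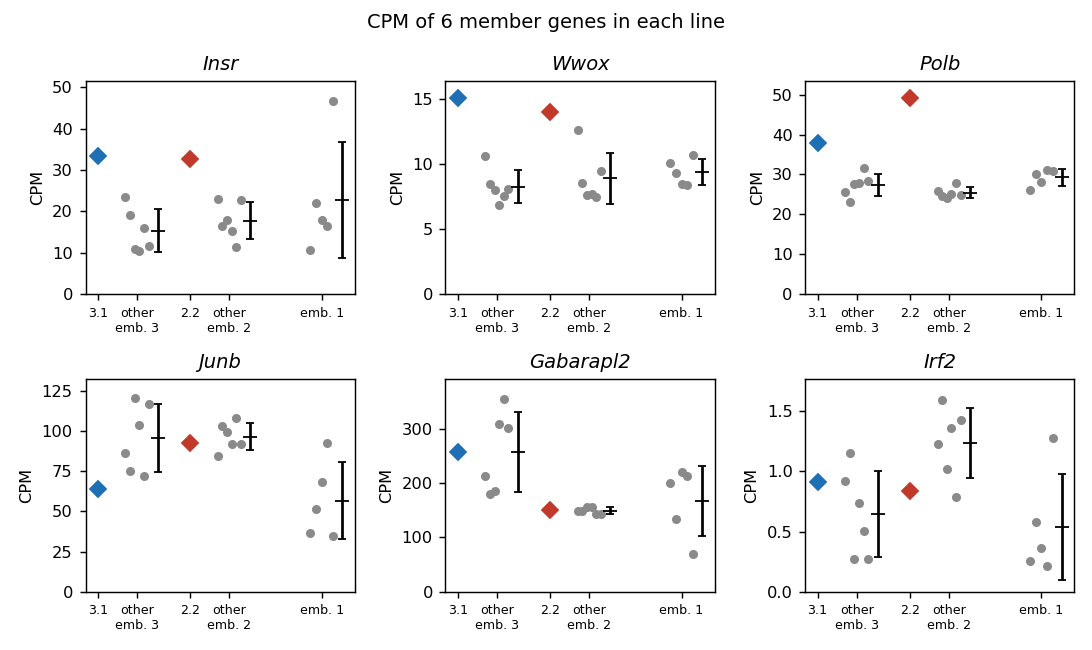
Level in CPM (y axis, from 0) of the 3 genes with the highest and the 3 with the lowest mean difference in each line (x axis, line 3.1 in blue, its sister lines, line 2.2 in red, its sister lines, and embryo 1), where grey points are lines and bars give the mean ± SD of those points. Polb stands apart in line 2.2 at 49.1 CPM, while Junb in line 2.2 and Gabarapl2 in both lines lie among their sister lines.

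Genes of RNA and protein handling had medians of 0.41 in line 2.2 and 0.28 in line 3.1. Tcf25, a component of ribosome-associated quality control, was the most raised in the mean, at 308 CPM in line 2.2, against 196 to 262 CPM, and 299 CPM in line 3.1, against 161 to 247 CPM, with differences of 0.52 and 0.56. Calr, the chaperone calreticulin, was at 881 CPM in line 2.2, against 497 to 685 CPM, and at 772 CPM in line 3.1, against 600.0 to 706 CPM, differences of 0.63 and 0.26. Farsa (0.41 and 0.28), a phenylalanyl-tRNA synthetase subunit, Psmd7 (0.40 and 0.31), a lid subunit of the proteasome, and Lsm1 (0.39 and 0.27), of the ring that binds mRNA before decapping, were above every sister line in both. Gadd45gip1, a mitochondrial ribosomal protein, was at 0.41 in line 2.2 and 0.13 in line 3.1, where it lay within the range of the sister lines. Elavl1, which binds AU-rich mRNA, was at 0.09 and 0.24. Adat1, a tRNA adenosine deaminase, was at 24.4 CPM in line 2.2, within the 23.1 to 26.4 CPM of its sister lines (-0.03), and at 31.0 CPM in line 3.1, above their 20.8 to 26.4 CPM (0.36). Ankrd10 (0.59 and 0.53) and Abhd13 (0.63 and 0.61) made up the rest of the 43 genes and were above every sister line in both.

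The sister lines with a raised chromosome 8 share also carried many of the highest sister values. Line 2.1 was the highest of the 6 sister lines of line 2.2 for 22 of the 43 genes, and lines 3.6 and 3.2 were the highest of the sister lines of line 3.1 for 19 and 13 of them. Without line 2.1 the median of the 43 genes in line 2.2 was 0.56 and that of chromosome 8 was 0.47. Without lines 3.2 and 3.6, a choice made after seeing the data, line 3.1 had medians of 0.46 and 0.43, and 37 of 43 genes stood above every remaining sister line. With lines 2.2 and 3.1 left out of the comparison, also after seeing the data, the chromosome 8 median was 0.19 in line 2.1, 0.15 in line 3.6 and 0.14 in line 3.2. In embryo 1, line 1.2 had a chromosome 8 median of 0.19, with 84.2% of the genes above the mean of its 4 sister lines. Of the 43 genes, 37 were above that mean in line 1.2, and 18 stood above every sister line, against 9.75% of all protein_coding genes. These are values of single lines.

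Proteins encoded by the 43 genes work in complexes whose other subunits mostly come from other chromosomes. Of 109 listed partners, all of which passed the filter, 104 lay outside chromosome 8 and 5 lay on it. The 104 partners had median differences of -0.06 in line 2.2 and -0.03 in line 3.1, against -0.01 and 0.01 for all protein_coding genes outside chromosome 8. In line 2.2, 11 of them stood above and 35 below every sister line, and in line 3.1, 9 above and 18 below. Of all protein_coding genes outside chromosome 8, 21.1% stood above and 23.5% below in line 2.2, and 11.4% and 14.7% in line 3.1. The median partner was therefore not raised with the 43 genes.

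The partners formed 23 sets by the gene they work with. In 14 sets the median difference was below 0 in both lines, in 4 it was above 0 in both, and in the remaining 5 it was below 0 in line 2.2 and above 0 in line 3.1. The 10 proteasome partners of Psmd7 had medians of -0.04 in line 2.2 and -0.13 in line 3.1. The 10 Sin3 partners of Sap30, Ing1 and Ing2 had medians of -0.10 and -0.04, and the 6 partners of Ash2l had -0.01 and -0.04. The 8 Fanconi partners of Fanca had -0.13 and -0.04, the 5 base excision repair partners of Polb -0.06 and -0.03, and the 4 catenin partners of Cdh1 -0.27 and 0.00. The 4 sets above 0 in both lines were the partners of Ikbkb (0.06 and 0.20, 2 genes), Arhgef7 (0.07 and 0.09, 4 genes), Lsm1 (0.11 and 0.01, 5 genes) and Prdx2 (0.05 and 0.06, 2 genes). Among the 5 mixed sets, the 9 partners of E2f4 and Tfdp1 had -0.02 and 0.11, with 7 of 9 above the sister mean in line 3.1, and the 5 partners of Ctcf had -0.04 and 0.03, with 5 of 5 above it in line 3.1. Of the 5 partners on chromosome 8 itself, 3 were above every sister line in both lines. Rbl2, a pocket protein that binds E2F4, was at 0.74 and 0.53, Lsm4, of the Lsm ring, at 0.54 and 0.25, and Sin3b, the scaffold of a Sin3 complex, at 0.42 and 0.45. The other two lay within the range of the sister lines in both: Lsm6, also of the Lsm ring, at 0.20 and 0.14, and Irs2, an adaptor of the insulin receptor, at -0.27 and -0.01.

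Single partners outside the chromosome departed from this. Prkdc, the catalytic subunit of the DNA-dependent kinase that acts with Lig4, was above every sister line in both lines (99.1 CPM in line 2.2, against 53.2 to 84.9 CPM, and 90.2 CPM in line 3.1, where its difference was 0.59). Ddb2, a damage sensor that works with Cul4a, was also above in both (0.61 and 0.27). Faap100, a Fanconi core subunit, was below every sister line in both (-0.65 and -0.48). Runx1, the partner of Cbfb, was at -1.26 and -0.32, at levels of 0.791 CPM in line 2.2 and 1.93 CPM in line 3.1.

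Genes downstream of the described factors, and genes of stress responses, were not raised together. Beside the counts given here and for the lists below, 23.5% of all protein_coding genes stood above every sister line in line 2.2 and 22.5% below. In line 3.1 these shares were 13.9% and 14%. The 22 E2F targets had medians of -0.06 in line 2.2 and 0.03 in line 3.1, with 6 above and 8 below every sister line in line 2.2 and 6 above and 1 below in line 3.1. The 3 with the largest differences were Ccne2 (0.36 and 0.23), Rrm2 (0.09 and 0.34) and Cdt1 (0.26 and 0.32), a replication licensing factor that itself lies on chromosome 8. Of the same list, Mcm5 (0.13 and 0.21) and Gins2 (0.28 and 0.13) also lie on chromosome 8. Mcm5 and Cdt1 were among the genes above every sister line in both lines, and Gins2 was among them in line 2.2 alone. The 18 p53 targets had medians of 0.12 and -0.12, with 7 above and 3 below in line 2.2 and 0 above and 2 below in line 3.1. Cdkn1a, the cell cycle inhibitor p21, was at 183 CPM in line 2.2, against 87.3 to 162 CPM (0.79), and at 0.15 in line 3.1. The proapoptotic gene Bbc3 was at 0.51 and -0.09, and the death receptor gene Fas was at -0.93 and 0.23, with less than 1 CPM in both lines.

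The 17 genes of the unfolded protein response had medians of 0.11 and 0.06, with 3 above every sister line and 0 below in each line. Ddit3, which encodes the stress factor CHOP, was at 27.9 CPM in line 2.2, against 8.77 to 16.7 CPM (1.40), and at 13.4 CPM in line 3.1 (0.43). Herpud1, an endoplasmic reticulum protein, was at 0.99 and 1.12, and Calr at the values given above, both of them chromosome 8 genes. The 11 heat shock genes had medians of 0.07 and 0.00, with 4 above and 3 below in line 2.2 and 1 above and 3 below in line 3.1. Hspa1a (1.68 and 0.00) and Hspa1b (1.08 and 0.10), the inducible HSP70 genes, were raised in line 2.2 alone, while the chromosome 8 gene Dnajb1, their co-chaperone, was raised in both (0.74 and 0.46).

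Pluripotency markers were lower in the median in both lines, while the medians of most other cell type marker lists differed in sign between the 2 lines. In line 2.2, 9 of 10 pluripotency markers were below every sister line and 0 above, with a median of -0.50 and a summed level of 2841 CPM, against 3461 to 4258 CPM in the sister lines. In line 3.1, 4 of 10 were below and 0 above, with a median of -0.24 and a sum of 3562 CPM, against 3802 to 4928 CPM. Tfcp2l1 (-0.97 and -0.30), Dppa5a (-0.92 and -0.23) and Utf1 (-0.64 and -0.42) had the largest differences. Zfp42, which itself lies on chromosome 8, had the highest value of the 10 in both lines (-0.07 and 0.07). None of these markers of the labelled cell type was at 0 throughout. In bulk RNA, fewer cells of a type and less RNA per cell cannot be told apart.

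Two-cell-like markers, genes of a rare state of mESC cultures, were raised in line 2.2, where 10 of the 11 tested (14 listed) were above every sister line, with a median of 1.98 and a sum of 50.1 CPM, against 10.8 to 14.5 CPM. In line 3.1 none of them was above or below every sister line, the median was -0.14 and the sum was 35.4 CPM, against 5.27 to 128 CPM. The largest differences were those of Zscan4b (3.54 and 0.12), Zfp352 (2.66 and -1.11) and Tcstv1 (2.52 and -0.11). Fibroblast markers had medians of -0.75 and 0.10, with 4 of 10 below and 0 above in line 2.2 and 0 on either side in line 3.1, and sums of 280.3 CPM in line 2.2, against 309 to 758 CPM, and 573 CPM in line 3.1, against 264 to 792 CPM. Their largest differences were in Postn (-1.41 and 0.32), Pdgfra (-1.18 and -0.16) and Lum (-0.93 and 0.08). Trophectoderm markers had medians of -0.51 and 0.03, with 0 of 10 above and 1 below in line 2.2 and 0 above and 2 below in line 3.1, led by Cdx2 (-1.81 and -1.49), Elf5 (-0.95 and 0.02) and Gata3 (-0.83 and 0.29). Their sums were 207 CPM in line 2.2, against 165 to 411 CPM, and 277 CPM in line 3.1, against 144 to 408 CPM. Primitive endoderm markers had medians of -0.54 and -0.10, with 2 of 10 above and 5 below in line 2.2 and 1 above and 2 below in line 3.1, led by Sox7 (-1.37 and 0.03), Gata6 (-0.69 and -1.27) and Pdgfra. Their sums were 87.6 CPM in line 2.2, against 79.2 to 155 CPM, and 140.2 CPM in line 3.1, against 131 to 169 CPM. Col4a1, of the same list, lies on chromosome 8 and was at -0.17 and 0.38. The part of these states in the chromosome 8 values was not tested.

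Between embryos, which were not used to choose the genes, few of the 43 genes were called, as was true of all genes. In the quasi-likelihood test of edgeR over all 19 lines, calls needed a fold change over 1.5 and a Benjamini-Hochberg adjusted p under 0.05. For embryo 3 over embryo 2, 1 of the 43 genes was higher and 0 lower, while 2.35% of all 18878 genes were higher and 3.27% lower. For embryo 3 over embryo 1 the counts were again 1 and 0, against 2.25% and 3.2%, and for embryo 2 over embryo 1 they were 1 and 0, against 2.1% and 2.25%. The same counts were obtained without lines 2.2 and 3.1, with 2.24% and 2.66%, 2.28% and 3.36%, and 2.2% and 2.33% of 18650 genes. At an unadjusted p under 0.05 in edgeR, in either direction, the numbers were 4 of 43 for embryo 3 over embryo 2, 13 for embryo 3 over embryo 1 and 6 for embryo 2 over embryo 1, while the shares of all genes were 24.7%, 25.8% and 20.2%. Without lines 2.2 and 3.1 the numbers were 10, 12 and 9, and the shares 22.3%, 26.7% and 21.5%. The median log2 fold changes of the 43 genes were 0.02, 0.13 and 0.08 (0.03, 0.07 and 0.01 without lines 2.2 and 3.1), and those of all protein_coding genes were -0.01, -0.03 and -0.01. At the call threshold, the shares among the 43 genes were near the shares of all genes. P-values here measure the spread between lines of an embryo, which share a genotype, and each embryo is 1 animal.

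Gabarapl2 was the gene called for embryo 3 over embryo 2, with a log2 fold change of 0.78 (SE 0.20, adjusted p = 0.0146 in edgeR). With line number as a replicate block the log2 fold change was 0.77 and the edgeR adjusted p was 0.0517, so the call was lost, although the number does not pair the lines. Gabarapl2 averaged 257 ± 67.3 CPM in embryo 3 (179.6, 258 and 355 CPM as lowest, median and highest) and 149 ± 5.37 CPM in embryo 2 (143, 148 and 156 CPM; SD, n = 7 each). All 7 lines of embryo 3 were above all 7 lines of embryo 2, and line 3.1, where chromosome 8 was raised, had the median value of its embryo. The lines of embryo 1 were at 200.4, 133, 219.8, 213 and 69.1 CPM (lines 1.1 to 1.5). Lines 1.1, 1.3 and 1.4 lay within the range of embryo 3 and above that of embryo 2. Lines 1.2 and 1.5 lay below the ranges of both.

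Junb was the gene called in both comparisons with embryo 1. The log2 fold change was 0.68 for embryo 3 over embryo 1 (SE 0.21, adjusted p = 0.0433 in edgeR) and 0.76 for embryo 2 over embryo 1 (SE 0.21, adjusted p = 0.0321 in edgeR). Junb averaged 91.1 ± 22.7 CPM in embryo 3 (63.9, 86.3 and 121 CPM as lowest, median and highest, n = 7), 95.9 ± 7.88 CPM in embryo 2 (84.7, 92.7 and 108 CPM, n = 7) and 56.7 ± 24.1 CPM in embryo 1, whose 5 lines were at 36.5, 51.6, 68.1, 92.5 and 34.9 CPM. All lines of embryos 3 and 2 were above the embryo 1 mean, but line 1.4 of embryo 1 lay within the range of both, and line 1.3 within that of embryo 3.

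The Junb calls lay close to the threshold. For embryo 3 over embryo 1 the edgeR adjusted p was 0.0940 without line 1.1, 0.0914 without line 1.2, 0.113 without line 1.5, 0.0506 without line 2.3, 0.0507 without line 2.4, 0.0501 without line 2.5, 0.0509 without line 2.7, 0.0808 without line 3.4, 0.0795 without line 3.5 and 0.0820 without line 3.7. For embryo 2 over embryo 1 it was 0.0891 without line 1.1, 0.0696 without line 1.2, 0.0587 without line 1.5, 0.0572 without line 2.3, 0.0570 without line 2.4 and 0.0580 without line 2.6. In these fits the log2 fold change stayed between 0.55 and 0.69 for embryo 3 over embryo 1 and between 0.63 and 0.75 for embryo 2 over embryo 1, so the adjusted p crossed the threshold while the direction stayed the same.

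Under a threshold on the adjusted p alone, Adam9 (0.49, SE 0.12, adjusted p = 0.0119), Cbfb (0.39, SE 0.11, adjusted p = 0.0290) and Ctcf (0.28, SE 0.07, adjusted p = 0.0219) were also higher in embryo 3 than in embryo 1 in edgeR. Ctcf was likewise higher in embryo 2 than in embryo 1 (0.29, SE 0.07, adjusted p = 0.0234 in edgeR). With this threshold 4 of 43 genes passed for embryo 3 over embryo 1, 2 for embryo 2 over embryo 1 and 1 for embryo 3 over embryo 2, while 8.19%, 5.95% and 8.25% of all genes did. Without lines 2.2 and 3.1 the numbers were 5, 2 and 1, against 8.25%, 6.07% and 6.69%. In that fit Cbfb no longer passed for embryo 3 over embryo 1 (0.36, adjusted p = 0.0531 in edgeR), while Ikbkb (-0.35, adjusted p = 0.00574 in edgeR) and Adat1 (-0.30, adjusted p = 0.0231 in edgeR) passed and were lower in embryo 3.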

How the data were processed

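The deposited table holds expected counts per gene for 19 lines, given as whole numbers, which the authors made with STAR, GRCm39 and RSEM 1.3.0 (tools and build from the submitters' processing notes) from stranded poly-A libraries. RSEM divides reads that match several genes by estimate, so genes with near-identical copies are less certain. Gene types and positions came from a later GENCODE annotation of GRCm39, in which 54749 of 55416 gene IDs matched. The table held 0 columns of other samples.

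Counts were filtered with filterByExpr by embryo, normalized by TMM and fitted by embryo in edgeR 4.0.16 (quasi-likelihood test, R 4.3.3), with Benjamini-Hochberg adjustment over 18878 genes. Line values are log2 CPM (prior count 2) against the mean of the sister lines, with no test, since 1 line stands against 6 and these contrasts chose the lines. The fits were tested on simulated data.

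All 43 genes are accounted for. Those given line by line are the 3 with the largest and the 3 with the smallest mean difference in lines 2.2 and 3.1, and the genes called between embryos. From each list, up to 3 genes with the largest difference are named. Lists of complex partners, E2F and p53 targets, unfolded protein response, heat shock and cell type marker genes were written from general knowledge. The genes and lists were chosen with earlier results of these data known.

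Alternatives were DESeq2 1.42.0, RLE factors, TMM factors from outside chromosome 8, other filters and prior count 0.5, the median of sister lines, no fold threshold, protein_coding genes alone, a replicate block by line number, and leaving out lines. Replicates are separately derived lines.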

Additional observations from a re-analysis of the deposited data

Results flagged for a closer look

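Within each embryo, the highest and lowest line were set against the others by the gap to the nearest line divided by the whole range, for 7 measures and 21 groups of lines. There were 3 values that stood apart. The chromosome 8 share of protein_coding counts was highest in line 2.2 among the 7 lines of embryo 2, at 5.90% with a gap of 0.580 of the range. The same share was highest in line 1.2 among the 5 lines of embryo 1, at 4.88% with a gap of 0.943 of the range. Polb was highest in line 2.2 among the lines of embryo 2, at 49.1 CPM with a gap of 0.799 of the range on the log2 scale. The share and the Polb level of line 2.2 belong to the contrast by which the line and the genes were chosen, so they are descriptions. Line 1.2 was not part of that choice, and chance alone gives about 1 such value in 20 groups. Line 3.1, the other line chosen, did not stand apart from embryo 3 in any of these measures.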

How the results depend on the processing

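Over 31 results, 518 alternative values were computed, of which 477 kept their direction and their side of the threshold or stayed within the spread, and 0 reversed a called direction. All values of lines 2.2 and 3.1 against their sister lines were among these. Leaving out each sister line gave a median of the 43 genes of 0.49 to 0.56 in line 2.2 and 0.37 to 0.44 in line 3.1, and other alternatives gave 0.49 to 0.53 and 0.38 to 0.46. In embryo 3 over embryo 1, the number of the 43 genes called was 2 with DESeq2 and 4 with no fold threshold, against 1, and 0 to 2 when each line was left out. In embryo 2 over embryo 1 it was 2 with no fold threshold, against 1, and 0 to 1 when each line was left out. Over all genes, 1029 were called for embryo 3 over embryo 1, against 1547 with no fold threshold and 660 among protein_coding genes alone, and 1062 for embryo 3 over embryo 2, against 704 among protein_coding genes alone, where fewer genes were tested.

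With a replicate block by line number, 581 genes were called for embryo 3 over embryo 1, and 0 of the 43 genes for embryo 3 over embryo 2, where Gabarapl2 had a log2 fold change of 0.77 and an edgeR adjusted p of 0.0517. The number does not pair the lines: deviations of 17 same-number pairs correlated at -0.36 to 0.28 (median 0.02), 6 of them over 0.1, and 1 of 19 lines was closest to its own number. The cause of these changes was not tested. Depth was lowest for Irf2 among the 43 genes, with 8 to 69 counts per line.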
